A study of Arabidopsis thaliana with 12 samples.

Results

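A set of 10 genes that Arabidopsis uses to fold proteins in the endoplasmic reticulum (ER), and to respond when that folding fails, were followed through 4 comparisons of nanoplastic-treated with untreated seedlings. The 10 genes, out of 24912 listed in at least 1 of the authors' 4 deposited tables, were the 3 BiP genes BIP1 (AT5G28540), BIP2 (AT5G42020) and BIP3 (AT1G09080), the BiP partners ERDJ3B (AT3G62600) and SDF2 (AT2G25110), the chaperones CNX1 (AT5G61790) and HSP90.7 (AT4G24190), the transcription factor genes BZIP60 (AT1G42990) and NAC103 (AT5G64060), and the vesicle gene SAR1A (AT1G09180). They were chosen from the same levels and fold changes against control that are given below, so those values describe the genes and support no further statement about them. All groups were wild type Col seedlings, 10 days old, grown on 1/2 MS medium, a standard plant culture medium. The treated groups had 50 ug/ml of polystyrene nanoplastics in it, either PS-NH2, whose particles carry amino groups, or PS-SO3H, whose particles carry sulfonate groups; the control group had none. Leaf and root RNA was sequenced separately, with 2 libraries for each of the 6 groups and 12 in all. The labels do not say whether the 2 libraries of a group came from separate plants or plates. Whether the p-values cover the spread between plants or plates is therefore not known.

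Secreted and membrane proteins enter the ER unfolded, and BiP, the Hsp70 of that compartment, holds them while they fold. When unfolded proteins build up, the membrane sensor IRE1 splices the mRNA of the transcription factor bZIP60, and bZIP28 is released from the membrane by cleavage; both then raise the transcription of chaperone genes, which is called the unfolded protein response. BIP1 and BIP2 are transcribed in most tissues, whereas BIP3 transcript is scarce in unstressed seedlings and is widely used as a reporter of the response.

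Each deposited table gives 1 fitted level for the treated group and 1 for the control group, normalized by the authors in a unit that the headers do not name and not divided by gene length, and no value for a single library. Whether both libraries of a group agreed can therefore not be seen for any gene. The 4 tables list between 23480 and 23839 genes, and the levels of a group sum to between 22628458 and 23690167. A log2 fold change is treated over control as the authors gave it, and the ± value beside it is its standard error recovered from the authors' p-value. The levels and fold changes of low genes may have been shrunk by the authors' fit, which the headers do not state: the same root control libraries have different levels in the 2 root tables for BIP3, SAR1A and SEC31A. For such genes the levels and fold changes are those of the fit and not of the reads, and the recovered error holds only if the p-value belongs to the fold change as printed. The tissue labels matched their markers: in control seedlings RBCS1A, a photosynthesis gene, had a level of 3361 in root and 392726 in leaf, and the root genes EXPA7, COBL9 and CASP1 were 6.69, 6.28 and 6.56 log2 units higher in root. In whole organs, fewer cells of a type and less RNA per cell cannot be told apart.

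With PS-NH2, most of the chaperone genes were at lower levels in leaf. In leaf PS-NH2 seedlings 8 of the 10 genes were lower than in control at an adjusted p below 0.05 and 0 were higher, beside 7.4% of all genes lower and 3.79% higher in that table. In leaf PS-SO3H seedlings 0 of the 10 passed either way by the authors' DESeq2 test, beside 2.63% of all genes lower and 1.83% higher. At an unadjusted p below 0.05 there were also 0, beside 12.4% of all genes in either direction. In root PS-NH2 seedlings 4 were lower and 0 higher, beside 2.7% lower and 1.62% higher over all genes. At an unadjusted p below 0.05, 5 were lower, beside 10.8% of all genes in either direction. In root PS-SO3H seedlings 2 were higher and 0 lower, beside 2.88% higher and 1.95% lower over all genes. The median log2 fold change of the 10 genes was -0.54 in leaf PS-NH2, -0.04 in leaf PS-SO3H, -0.16 in root PS-NH2 and 0.01 in root PS-SO3H, with the median of all genes within 0.01 of 0 each time. All 10 genes are listed in all 4 tables; with a mean level of at least 10 asked for, 9 remain in the leaf PS-NH2 table (without SAR1A) and 8 in the root PS-NH2 table (without BIP3 and SAR1A).

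**Figure D1:**
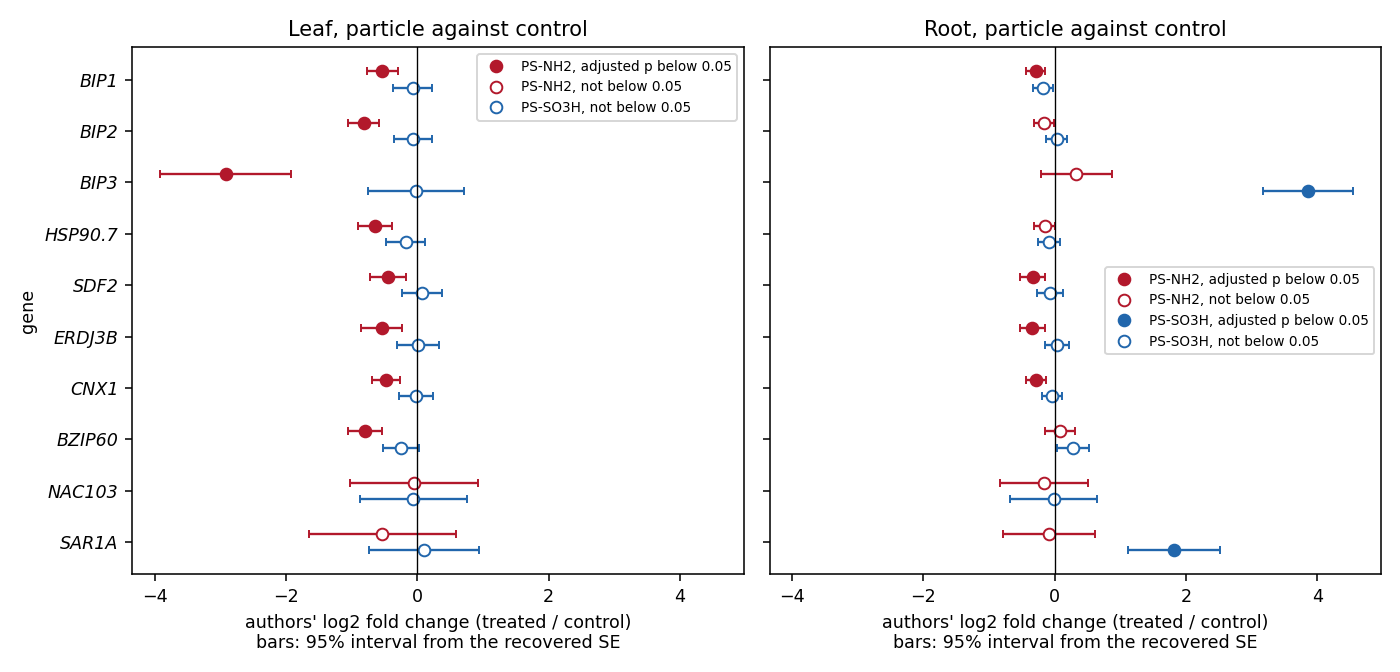
Log2 fold change of particle-treated over control seedlings for the 10 genes (rows) in leaf and root, with PS-NH2 in red and PS-SO3H in blue; bars are 95% intervals from the recovered standard errors and filled points have an adjusted p below 0.05. In leaf 8 PS-NH2 points lie left of 0 and filled, and in root the BIP3 and SAR1A points for PS-SO3H, at 3.86 and 1.82, stand far to the right of the other points.

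BIP3 had the widest swings of the 10 genes. Its level was 9.95 in leaf PS-NH2 seedlings, against 75.3 in their controls. In leaf PS-SO3H seedlings it was 80.3, against 81.3 in controls. Leaf BIP3 was thus low with PS-NH2 and close to its control with PS-SO3H. In root PS-SO3H seedlings the level was 128, against 8.84 in controls. In root PS-NH2 seedlings it was 3.35, against 2.66 in controls. Root BIP3 was therefore near the bottom of the measurable range in every group except PS-SO3H. The log2 fold changes were -2.92 ± 0.51 in leaf PS-NH2, -0.02 ± 0.37 in leaf PS-SO3H, 0.33 ± 0.27 in root PS-NH2 and 3.86 ± 0.35 in root PS-SO3H. The root PS-SO3H value, 14.5-fold with a 95% interval of 3.17 to 4.55 in log2 units, was the highest of all 23818 genes in its table, and the leaf PS-NH2 value ranked 43 from the lowest of 23480. One control group served both tables of a tissue, yet its root BIP3 level was fitted as 8.84 in one table and 2.66 in the other, so a root control level this low is known only to within a few fold.

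The 250 bases before the annotated start of BIP3 are shown because BIP3 had the widest changes and its stretch holds 2 copies of the first motif below. The ER stress response element (ERSE), letters CCAATNNNNNNNNNNCACG, is a known site of bZIP-type ER stress regulators, and the hexamer TCATCG is the core known as UPRE-III. The sequence is from RefSeq TAIR10.1, chr1:2931851-2932100, on the minus strand, 5′ to 3′, with matches on either strand in capitals; in order they are UPRE-III at -193 to -188 and ERSE at -174 to -156 and at -96 to -78, all 3 reading on the opposite strand.
BIP3: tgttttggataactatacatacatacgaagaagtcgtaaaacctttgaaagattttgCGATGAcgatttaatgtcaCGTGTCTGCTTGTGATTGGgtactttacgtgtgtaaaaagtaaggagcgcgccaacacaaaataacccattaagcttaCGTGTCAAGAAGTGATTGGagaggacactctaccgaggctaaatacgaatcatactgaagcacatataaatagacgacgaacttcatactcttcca
Of all 27443 protein-coding genes, 0.849% hold an ERSE in the 300 bases from 250 before to 50 after the start, and 8.63% hold a UPRE-III core. A match of letters is a description and not a shown binding site.

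BIP1 and BIP2 encode nearly identical BiP proteins made in most tissues. In root PS-SO3H seedlings BIP2 was close to control. BIP1 had -0.18 log2 units there, with a 95% interval of -0.33 to -0.02, and did not pass the threshold. BIP2 had a level of 2496 in leaf PS-NH2 seedlings, against 4393 in controls, and of 4242 in leaf PS-SO3H seedlings, against 4442 in controls. In root its level was 9310 with PS-NH2, against 10417 in controls, and 10412 with PS-SO3H, against 10176 in controls. The log2 fold changes of BIP2 were -0.82 ± 0.12 in leaf PS-NH2, -0.07 ± 0.15 in leaf PS-SO3H, -0.16 ± 0.08 in root PS-NH2 and 0.03 ± 0.08 in root PS-SO3H. So BIP2 was low in leaf with PS-NH2 and near its control with PS-SO3H in both tissues. Its root PS-NH2 value of -0.16 did not pass the threshold. BIP1 had levels of 3539 in leaf PS-NH2 seedlings, against 5120 in controls, and of 4937 in leaf PS-SO3H seedlings, against 5173 in controls. In root it had 8435 with PS-NH2, against 10293 in controls, and 8874 with PS-SO3H, against 10050 in controls. The corresponding log2 fold changes of BIP1 were -0.53 ± 0.12, -0.07 ± 0.15, -0.29 ± 0.08 and -0.18 ± 0.08, below control in all 4 and past an adjusted p of 0.05 in both PS-NH2 comparisons. Reads could be hard to divide between the pair: 22.9% of the 50-base stretches of the BIP1 transcript also occur in BIP2, the longest shared stretch being 323 bases, so the split between BIP1 and BIP2 is uncertain. BIP3 shares no 50-base stretch with either, and its longest is 20 bases.

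Just inside the BIP2 transcript, at +21 to +31 from the annotated start, lies a match to ERSE-II, letters ATTGGNCCACG, shown because only 0.0692% of all genes hold one in the 300-base window. It is RefSeq TAIR10.1, chr5:16810663-16810673, on the minus strand, the strand of the gene, with the whole match in capitals.
BIP2: ATTGGTCCACG
The hexamer CCACGT, the second of the short bZIP motifs searched, overlaps it at +27 to +32, and a UPRE-III core lies at +39 to +44. The window of BIP1 held none of the 4 motifs.

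ERDJ3B, a J-domain cochaperone of BiP, and SDF2, which forms a complex with ERDJ3B and BiP, had similar values throughout. ERDJ3B had a level of 753 in leaf PS-NH2 seedlings, against 1098 in controls, and of 1672 in root PS-NH2 seedlings, against 2112 in controls. SDF2 had 789.5 in leaf PS-NH2 seedlings, against 1076 in controls, and 1609 in root PS-NH2 seedlings, against 2028 in controls. Both genes were thus lower with PS-NH2 in each tissue, ERDJ3B by log2 -0.54 ± 0.16 in leaf and -0.34 ± 0.10 in root, and SDF2 by -0.45 ± 0.14 and -0.33 ± 0.10. With PS-SO3H the levels of ERDJ3B were 1119 in leaf, against 1112 in controls, and 2126 in root, against 2066 in controls. SDF2 had 1145 in leaf PS-SO3H seedlings, against 1089 in controls, and 1892 in root PS-SO3H seedlings, against 1983 in controls. All 4 of these PS-SO3H fold changes lay between -0.07 and 0.07 log2 units, none past the threshold. Near the start of ERDJ3B, CCACGT was found at +38 to +43 and again on the opposite strand at +40 to +45, and the SDF2 window held no motif.

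CNX1, calnexin, is a membrane lectin that retains unfinished glycoproteins, and HSP90.7, also called SHEPHERD, is the Hsp90 of the ER. CNX1 had a level of 3738 in leaf PS-NH2 seedlings, against 5189 in controls, and of 5187 in leaf PS-SO3H seedlings, against 5244 in controls. In root CNX1 had 8687 with PS-NH2, against 10544 in controls, and 10012 with PS-SO3H, against 10301 in controls. CNX1 was lower with PS-NH2 in both tissues, by log2 -0.47 ± 0.11 in leaf and -0.28 ± 0.08 in root, and had -0.02 ± 0.13 and -0.04 ± 0.08 with PS-SO3H. HSP90.7 had a level of 3931 in leaf PS-NH2 seedlings, against 6149 in controls, and of 5483 in leaf PS-SO3H seedlings, against 6210 in controls. In root HSP90.7 had 10130 with PS-NH2, against 11265 in controls, and 10384 with PS-SO3H, against 10999 in controls. All 4 treated levels of HSP90.7 were below control, by log2 -0.65 ± 0.13, -0.18 ± 0.15, -0.15 ± 0.08 and -0.08 ± 0.08 in the order given, and the first alone passed the threshold.

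The stretch before HSP90.7 is shown for comparison, as that of an abundant chaperone gene with an ERSE that runs into a CCACGT hexamer just before the start. It is RefSeq TAIR10.1, chr4:12556059-12556308, minus strand, 5′ to 3′, with matches in capitals: CCACGT at -56 and -46, an ERSE at -22 to -4, and CCACGT at -8 and, on the opposite strand, at -6.
HSP90.7: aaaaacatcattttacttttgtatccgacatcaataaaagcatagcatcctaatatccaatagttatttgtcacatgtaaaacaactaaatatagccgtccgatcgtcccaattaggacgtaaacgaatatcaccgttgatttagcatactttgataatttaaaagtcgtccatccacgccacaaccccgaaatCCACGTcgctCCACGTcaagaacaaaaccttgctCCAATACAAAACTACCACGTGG
CNX1 also holds an ERSE, at +22 to +40 within the transcript and on the opposite strand, overlapping a CCACGT at +21 to +26.

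**Figure D2:**
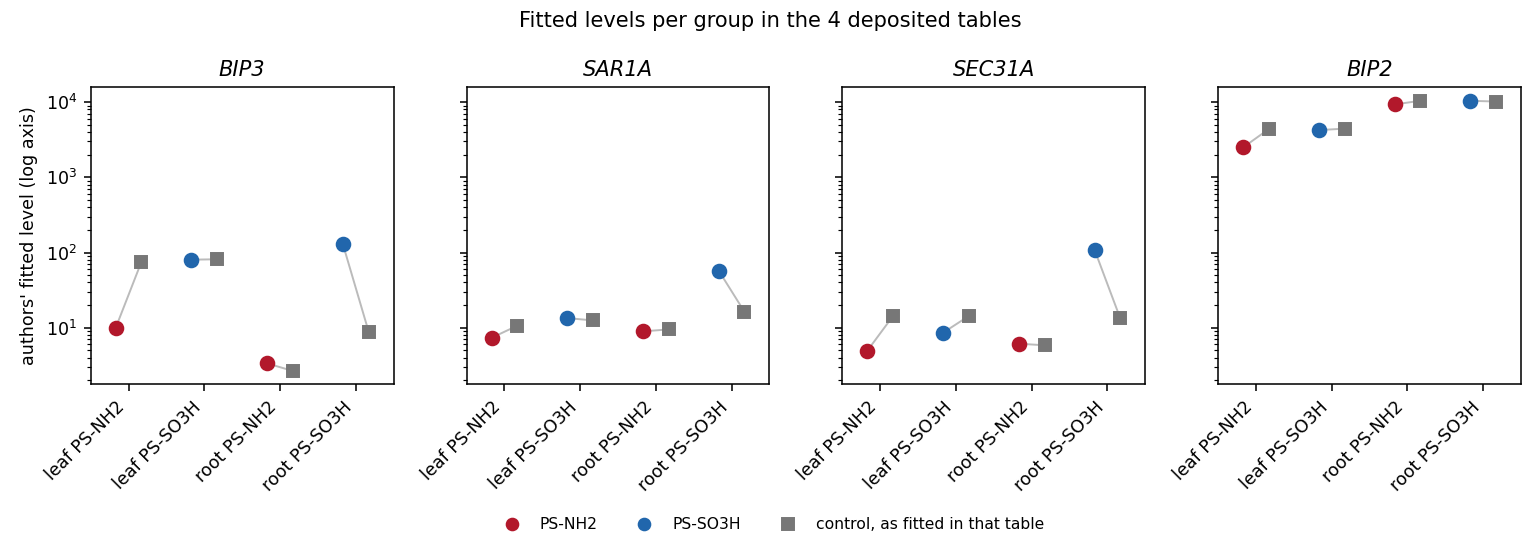
Fitted level of BIP3, SAR1A, SEC31A and BIP2 on a log axis in each treated group (circles, PS-NH2 red, PS-SO3H blue) and in control as fitted in the same table (grey squares); each point is 1 value for 2 libraries, with no error given. The root PS-SO3H levels of BIP3, SAR1A and SEC31A, 128, 57.3 and 109, stand above controls of 8.84, 16.3 and 13.3, while BIP2 lies between 9310 and 10417 in root and is lowest, at 2496, in leaf PS-NH2 seedlings.

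Among the regulators, BZIP60 had a level of 816 in leaf PS-NH2 seedlings, against 1419 in controls, and of 1210 in leaf PS-SO3H seedlings, against 1433 in controls. In root it had 1119 with PS-NH2, against 1060 in controls, and 1254 with PS-SO3H, against 1037 in controls. BZIP60 was thus below control with both particles in leaf and above control with both in root, with log2 fold changes of -0.80 ± 0.13 and -0.24 ± 0.14 in leaf and 0.08 ± 0.12 and 0.27 ± 0.13 in root; the first alone passed the threshold. Gene levels do not separate the spliced from the unspliced BZIP60 mRNA, so they say nothing of IRE1 activity. NAC103, a NAC transcription factor gene acting after bZIP60, had 24.3 in leaf PS-NH2 seedlings, against 25.3 in controls, and 24.3 in leaf PS-SO3H seedlings, against 25.4 in controls. In root its levels were 34.9 with PS-NH2, against 39.0 in controls, and 38.5 with PS-SO3H, against 38.8 in controls. NAC103 stayed within 0.16 log2 units of control throughout, with standard errors of 0.34 to 0.50 that leave room for changes of nearly 1 log2 unit either way.

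SAR1A encodes a small GTPase that starts the COPII coat of vesicles leaving the ER. Its level was 57.3 in root PS-SO3H seedlings, against 16.3 in controls, and 8.95 in root PS-NH2 seedlings, against 9.49 in controls. In leaf it was 7.33 with PS-NH2, against 10.6 in controls, and 13.4 with PS-SO3H, against 12.5 in controls. The log2 fold change was 1.82 ± 0.36 in root PS-SO3H, ranking 18 from the highest in that table, against -0.09 ± 0.36 in root PS-NH2, -0.54 ± 0.57 in leaf PS-NH2 and 0.10 ± 0.43 in leaf PS-SO3H. Like BIP3, SAR1A thus stood high in root PS-SO3H seedlings. SAR1A shares at most 30 bases in a row with SAR1B and 16 with SAR1C, the other SAR1 genes compared. It lies on the same chromosome as BIP3 with 10 protein-coding genes between them. Its upstream stretch is shown as that of the second gene high in root PS-SO3H seedlings. It is RefSeq TAIR10.1, chr1:2964773-2965022, plus strand, 5′ to 3′, with CCACGT at -227 and, overlapping on the opposite strand, at -225, a UPRE-III core at -129 on the opposite strand and CCACGT at -76, in capitals.
SAR1A: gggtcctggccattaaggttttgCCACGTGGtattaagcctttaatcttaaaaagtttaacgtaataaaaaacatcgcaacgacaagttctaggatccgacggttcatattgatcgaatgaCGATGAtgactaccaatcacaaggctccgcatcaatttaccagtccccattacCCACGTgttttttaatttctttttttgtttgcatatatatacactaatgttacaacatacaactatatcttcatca
No ERSE was found in this window, which says only that these letters are not in it.

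Across the 10 genes, 3 windows held an ERSE, beside 14 of 70 other ER genes (20.0%) and 0.849% of all genes. At least 1 of the 4 motifs, each searched on both strands, was found for 6 of the 10, beside 29 of 70 other ER genes (41.4%) and 17.8% of all genes; in the 250 bases before the start alone it was 3 of the 10, 31.4% of the other ER genes and 14.3% of all genes. CCACGT was found for 5 of the 10, beside 27.1% and 9.85%. BIP1, SDF2, BZIP60 and NAC103 held none. Genes with and without matches were found among those lower in leaf PS-NH2 seedlings, such as BIP2 and BIP1. A UPRE-III core was found for BIP3 and SAR1A, which were high in root PS-SO3H seedlings, and also for BIP2, which was near control there. The window of SEC31A, a COPII coat gene of the wider list that was likewise high in that group, held none of the 4 motifs. Any link between the motifs and the fold changes was not tested.

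**Figure D3:**
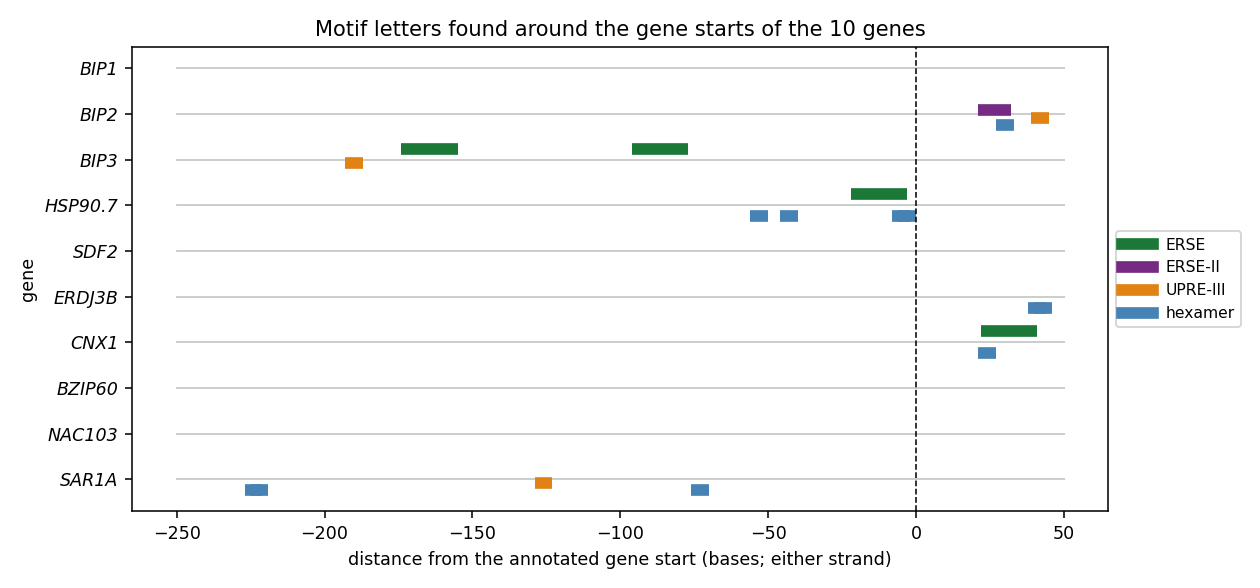
Positions of motif letters around the annotated gene start (dashed line at 0) of the 10 genes, in bases, from 250 before to 50 after; green is ERSE, purple ERSE-II, orange UPRE-III and blue the hexamer of the CCACGT motif, each on either strand. Matches before the start are seen for BIP3, HSP90.7 and SAR1A, those of BIP2, ERDJ3B and CNX1 lie after it, and 4 genes have none.

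In untreated seedlings the 10 genes spanned a wide range of levels per kilobase of transcript. In leaf controls CNX1 was highest with a level per kilobase of 2403, followed by HSP90.7 with 2273, BIP2 with 1850, BIP1 with 1824 and BZIP60 with 1164. SDF2 with 738 and ERDJ3B with 694 came next, then BIP3 with 38.8, SAR1A with 16.96 and NAC103 with 14.5. In root controls the order was CNX1, BIP2, HSP90.7, BIP1, SDF2, ERDJ3B, BZIP60, NAC103, SAR1A and BIP3, running between 4721 and 4.22 per kilobase. Since the tables give no spread for a level, neighbours in these orders cannot be told apart by a test. BIP3 was last in untreated root and ahead of SAR1A and NAC103 in untreated leaf, and in root PS-SO3H seedlings it reached a level per kilobase of 61.3, beside 77.7 for SAR1A and 22.0 for NAC103.

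Root had the higher control level for 8 of the 10 genes and for 63 of the 70 other ER genes, beside 68.7% of all genes, with medians of 0.84, 0.82 and 0.53 log2 units for the root over leaf ratio. The exceptions were BIP3, with a control level of 8.84 in root and 81.3 in leaf, and BZIP60, with 1037 in root and 1433 in leaf. The tissues were scaled in separate tables, so this ratio holds only up to that scaling, and the order of BIP3 in root and leaf was the same with the controls of the PS-NH2 tables, 2.66 in root and 75.3 in leaf. For SAR1A the direction depended on the table, with 16.3 in root and 12.5 in leaf in the PS-SO3H tables but 9.49 in root and 10.6 in leaf in the PS-NH2 tables.

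Both particles were given at the same dose and time, which allows their fold changes to be set against each other. Since the 2 tables of a tissue share their control libraries and the genes were chosen from them, the differences are given as a description. In leaf the difference, PS-NH2 minus PS-SO3H, was -2.90 ± 0.63 log2 units for BIP3 (95% interval -4.14 to -1.66) and -0.75 ± 0.19 for BIP2 (-1.12 to -0.38). These 2 of the 10 genes had an adjusted p below 0.05, beside 3.17% of all genes in either direction. For BIP1, HSP90.7, SDF2, ERDJ3B, CNX1 and BZIP60 the leaf differences lay between -0.55 and -0.46 and missed the threshold, each with an interval that did not reach 0. These errors leave out that the tables share their controls: with that covariance taken out, 8 of the 10 genes passed in leaf, beside 8.32% of all genes. In root the difference was -3.53 ± 0.45 for BIP3 (-4.40 to -2.66) and -1.90 ± 0.51 for SAR1A (-2.89 to -0.91), again 2 of the 10, beside 3.24% of all genes. However, the shared root control was fitted 1.73 log2 units apart in the 2 fits for BIP3 and 0.78 for SAR1A. The errors and intervals of these 2 differences leave that out and so understate their uncertainty. With the covariance of the shared controls taken out 4 passed in root, beside 9.01% of all genes, and with genes of a mean level of at least 10 alone 0 passed, because BIP3 and SAR1A are then left out. The intervals of the root differences were -0.32 to 0.11 for BIP1, -0.42 to 0.03 for BIP2 and -0.30 to 0.16 for HSP90.7. Root differences beyond 0.42 log2 units lie outside them for these 3 chaperones. These intervals do not stand for the other chaperones. For ERDJ3B and CNX1 the interval of the root difference did not reach 0, though both missed the threshold. For SDF2 it included 0. With PS-NH2 and PS-SO3H in root, ERDJ3B had log2 fold changes of -0.34 and 0.04, SDF2 -0.33 and -0.07, and CNX1 -0.28 and -0.04. The wide intervals of NAC103, -1.26 to 1.27 in leaf and -1.09 to 0.79 in root, leave its difference unknown.

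Fold changes under the same particle were also set against each other between the 2 tissues. Since the genes were chosen from these fold changes, the differences are again given as a description. With PS-NH2 the root minus leaf difference was 3.25 ± 0.58 for BIP3, 0.88 ± 0.18 for BZIP60, 0.65 ± 0.14 for BIP2 and 0.49 ± 0.16 for HSP90.7, 4 of the 10 at an adjusted p below 0.05, beside 6.58% of all genes. Of these, BIP3 had root levels of only 3.35 with PS-NH2 and 2.66 in controls. A fall like the one in leaf could not have been seen from so low a control. For the other chaperones the difference was smaller, between 0.11 for SDF2 and 0.25 for BIP1, with intervals that included 0. With PS-SO3H it was 3.88 ± 0.51 for BIP3, the single gene of the 10 to pass, beside 2.54% of all genes, and 1.71 ± 0.56 for SAR1A, which did not pass.

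Other genes of the ER folding and export machinery were taken as a list of 70 in 8 groups. In leaf PS-NH2 seedlings 13 of the 70 fell and 1 rose, beside 7.4% of all genes lower and 3.79% higher, and the median of the 70 log2 fold changes was -0.09. By group, 3 of 5 Hsp70 partners, 3 of 5 lectin chaperones and glycan control genes, 5 of 15 disulfide formation genes and 2 of 12 sensors and regulators fell. Of 10 degradation, 6 translocation and 9 oligosaccharyltransferase genes 0 passed, and of 8 COPII coat genes 1 rose; the sensor and COPII counts rest on 2 genes and 1 gene. By the authors' adjusted p in each case, ERDJ3A, a J-domain protein gene, had 16.5 in PS-NH2 leaf, against 45.7 in controls (log2 -1.47 ± 0.48, adjusted p = 0.025). ERDJ2B, a second J-domain protein gene, had 353 in PS-NH2 leaf, against 607 in controls (-0.78 ± 0.17, adjusted p = 0.000134). ERO1, which feeds oxidising power into disulfide formation, had 66.6 in PS-NH2 leaf, against 149 in controls (-1.16 ± 0.31, adjusted p = 0.00318). HSP70-17, an Hsp70-family gene, had 863 in PS-NH2 leaf, against 1512 in controls (-0.81 ± 0.18, adjusted p = 0.00011). Genes for Hsp70 cycling, disulfide bonds and glycan binding were thus among those that fell. NAC062, a membrane-bound NAC factor, had 558 in PS-NH2 leaf, against 1399 in controls (-1.33 ± 0.16, adjusted p = 3.05e-14). TIN1, a gene known to be induced by the ER stress drug tunicamycin, had 10.3 in PS-NH2 leaf, against 28.7 in controls (-1.48 ± 0.53, adjusted p = 0.0491). SEC13A, a COPII coat gene, was the one that rose, with 1644 in PS-NH2 leaf, against 1245 in controls (0.40 ± 0.13, adjusted p = 0.0193).

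In leaf PS-SO3H seedlings 1 of the 70 fell and 0 rose, beside 2.63% of all genes lower: NAC062 had 634, against 1406 in controls (log2 -1.15 ± 0.17, adjusted p = 6.91e-10), close to its PS-NH2 value. In root PS-NH2 seedlings 0 of the 70 passed by the authors' DESeq2 test, with 7 lower and 1 higher at an unadjusted p below 0.05, beside 10.8% of all genes at that p in either direction, about the same share. In root PS-SO3H seedlings 3 of the 70 rose and 0 fell, near the 2.88% of all genes that were higher in that table. SEC31A (AT1G18830), an outer COPII coat gene, had a level of 109 in root PS-SO3H seedlings, against 13.3 in controls (3.04 ± 0.34, adjusted p = 2.47e-16), the second highest fold change of that table after BIP3. Its level was 6.13 in root PS-NH2 seedlings, against 5.84 in controls, and 4.94 in leaf PS-NH2 seedlings, against 14.3 in controls (-1.54 ± 0.57, adjusted p = 0.0619). In leaf PS-SO3H seedlings it was 8.57, against 14.3 in controls (-0.74 ± 0.43, adjusted p = 0.534). The root controls of SEC31A, 1 group, were thus fitted as 13.3 in one table and 5.84 in the other. BI1, an ER membrane inhibitor of cell death, had 4592 in root PS-SO3H seedlings, against 3594 in controls (0.35 ± 0.10, adjusted p = 0.00795). PDIL1-3, a disulfide isomerase, had 3636 in root PS-SO3H seedlings, against 3013 in controls (0.27 ± 0.09, adjusted p = 0.0471). In this root comparison the large changes were in BIP3, SEC31A and SAR1A, while of the abundant chaperones BIP2, CNX1 and HSP90.7 were within 0.08 log2 units of control and BIP1 had -0.18, with an interval of -0.33 to -0.02.

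Tests of the differences covered the same list, with the libraries shared as above. SEC31A differed between the particles in root, PS-NH2 minus PS-SO3H, by -2.96 ± 0.48 log2 units (adjusted p = 1.35e-07), and between root and leaf under PS-SO3H by 3.78 ± 0.55 (adjusted p = 3.83e-09), both from a normal test on the recovered standard errors adjusted over all genes. Its mean level in the root PS-NH2 table is below 10. Its shared root control was fitted 1.19 log2 units apart in the 2 root fits. The error and p-value of the particle difference leave that out. In leaf 4 of the 70 had a lower fold change under PS-NH2 than under PS-SO3H and 0 a higher one, beside 3.17% of all genes in either direction. Under PS-NH2 9 of the 70 had a higher fold change in root than in leaf and 0 a lower one, beside 6.58% of all genes. NAC062 was among these 9, by 1.24 ± 0.20 (adjusted p = 1.02e-07).

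**Figure D4:**
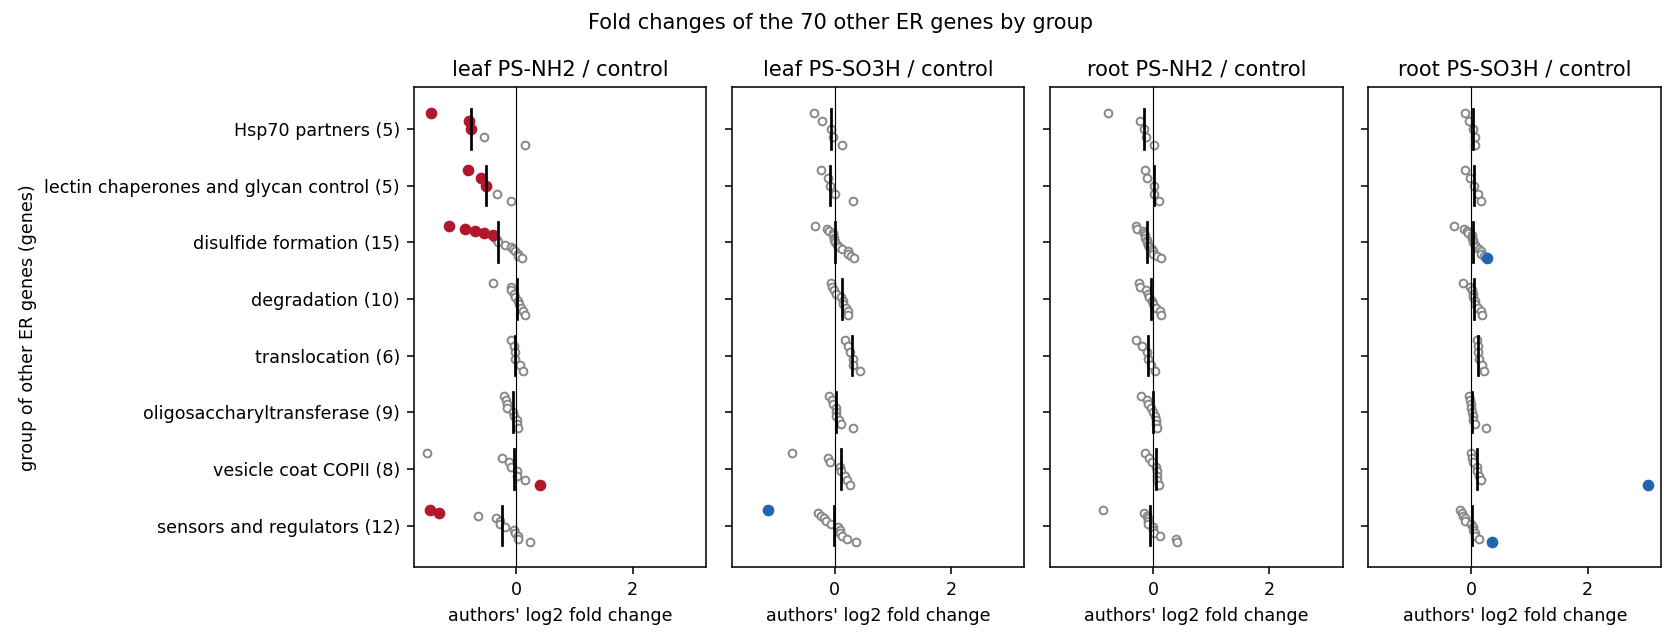
Log2 fold change of treated over control for 70 other ER genes in 8 groups (rows, number of genes in brackets) in the 4 comparisons; filled points have an adjusted p below 0.05, open points do not, and the short black bars are group medians. In leaf PS-NH2 seedlings the filled points sit left of 0 in the folding groups, with a median of -0.78 for Hsp70 partners, and in root PS-SO3H seedlings SEC31A stands alone at 3.04.

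Some of the cell type markers also differed from control. In root PS-SO3H seedlings the root hair genes EXPA7 and COBL9 rose by 0.59 and 0.72 log2 units and the leaf gene LHCB1.3 fell by 0.36, while CASP1, RBCS1A and LHCB2.1 had 0.29, -0.24 and -0.60 and did not pass. In root PS-NH2 seedlings RBCS1A and LHCB1.3 rose by 0.39 and 0.67, while LHCB2.1, EXPA7, COBL9 and CASP1 had 0.24, -0.35, -0.01 and -0.12 and did not pass. In leaf PS-NH2 seedlings LHCB2.1 fell by 1.59, while RBCS1A and LHCB1.3 had 0.24 and -0.01 and the 3 root genes lay between -0.25 and 0.07, none past the threshold. In leaf PS-SO3H seedlings 0 of the 6 markers passed. The part of these shifts in the ER gene results was not tested.

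The genes whose 4 fold changes lay nearest to those of BIP2, among 15354 genes with a mean level of at least 50, were HSP70-17, at a distance of 0.034 log2 units, EXO70B2 at 0.048, SD1-29 at 0.099, AT2G25530 at 0.0997 and RUP2 at 0.110. HSP70-17, of the Hsp70 family and the nearest of them, had log2 fold changes of -0.81 in leaf PS-NH2, -0.07 in leaf PS-SO3H, -0.16 in root PS-NH2 and 0.07 in root PS-SO3H. Among the 10 genes the nearest to BIP2 was HSP90.7, at 0.24, and the farthest BIP3, at 4.40. The 4 values per gene are not independent, since comparisons within a tissue share their controls.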

How the data were processed

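RNA from leaf and root was made into cDNA with random primers and sequenced on Illumina machines, per the labels' protocols; for these tables the strand setting, aligner and counter are not given in the sources used. The series text describes a small-RNA protocol, which the tables do not resemble. The names of the deposited tables give DESeq2 as the authors' method. Per the file headers, each table pairs a treated group with its control and holds, for each gene, the log2 fold change, its p-value and adjusted p-value, the gene length and a signal, the expression level of either group. The headers name no unit for the level; from the values it is read as reads divided by size factors, since the sums of the groups are nearly equal and the ratio of the levels is the fold change. The submitters' processing notes name the build TAIR10; the files hold no coordinates, and positions and sequences come from RefSeq TAIR10.1.

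From these tables standard errors were recovered as the log2 fold change over the normal quantile of its p-value, and 95% intervals are 1.96 of them on either side. A gene was called at an adjusted p below 0.05 over its table. Differences of 2 fold changes had squared errors added and were adjusted by Benjamini-Hochberg over all genes in both tables. The simulated data on which that step was tried had independent errors, so they do not cover shared controls or shrunken fold changes. Python 3.11.15, pandas 2.3.3, numpy 2.4.6 and scipy 1.17.1 were used. With no value per library, depth per library is unknown. The 10 genes and the list of 70 were chosen with earlier results of these data known. Of the 70, those named were up to 4 passing genes with the largest change in each direction per comparison, and any passing gene of the groups of sensors and regulators and of Hsp70 partners; SEC31A is followed into the other comparisons. Genes like BIP2 are the 5 nearest by Euclidean distance.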

Additional observations from a re-analysis of the deposited data

Results flagged for a closer look

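The fold changes of 4 of the 10 ER genes under PS-NH2, and of 1 under PS-SO3H, differed between root and leaf at an adjusted p below 0.05. Under PS-NH2 the root minus leaf difference was 3.25 log2 units for BIP3, 0.88 for BZIP60, 0.65 for BIP2 and 0.49 for HSP90.7. Under PS-SO3H it was 3.88 for BIP3. The genes were chosen from the fold changes that enter these differences. In the root PS-NH2 comparison both BIP3 levels were below 10, so its difference under PS-NH2 rests on a root value near the floor.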

How the results depend on the processing

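No paired analysis was possible because the tables give no value per library; leaving out each replicate in turn was not run for the same reason. With the threshold of the series text, an adjusted p of at most 0.001 and a change of at least 1 log2 unit, the ER chaperone and stress genes called were 1 in leaf PS-NH2 (BIP3) and 0 in root PS-NH2, beside 3.14% and 0.633% of all genes, and the other ER genes called were 1 in leaf PS-NH2 (NAC062) and 1 in root PS-SO3H (SEC31A), the root PS-SO3H share of all genes being 0.571%. With genes of a mean level of at least 10 alone, 2 other ER genes passed in leaf PS-SO3H (NAC062 lower and SEC61G2 higher), and 0 of the 10 genes differed between particles in root, since BIP3 and SAR1A fall below that level in the root PS-NH2 table. With the covariance of the shared controls taken out, 8 of the 10 genes differed between particles in leaf and 4 in root, beside 8.32% and 9.01% of all genes. Re-centring on abundant genes lost the call of PDIL1-3 in root PS-SO3H (adjusted p = 0.0579). The median root over leaf control ratio of the 10 genes was 0.34 log2 units when scaled by the median ratio and 0.60 by the upper quartile. SAR1A then had -0.12 by the median ratio, and -0.16 with the controls of the PS-NH2 tables. In the 250 bases before the start, 3 of the 10 genes held a motif. The other counts over these genes kept their direction and stayed within 1.5 times of the reported count. Levels near 10 or below, as for BIP3 and SAR1A in root controls, limit their fold changes.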

Other observations

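By a comparison chosen after its values were seen, the genes whose 4 fold changes lay nearest to those of BIP3, among 22363 genes in all 4 tables, were SEC31A at a distance of 1.78 log2 units, WRKY51 at 2.03, AT1G19960 at 2.07, PR5 at 2.12 and AT4G10860 at 2.18. Unlike for BIP2, no minimum level was asked for. These distances are far larger than the 0.034 to 0.110 of the genes nearest to BIP2, so the nearest genes are not close to BIP3. PR5, a pathogenesis-related protein gene used as a marker of the salicylic acid response, had log2 fold changes of -1.74 in leaf PS-NH2, 0.85 in leaf PS-SO3H, 0.29 in root PS-NH2 and 2.34 in root PS-SO3H. WRKY51, a WRKY transcription factor gene, had -2.45 in leaf PS-NH2, -0.13 in leaf PS-SO3H, 0.47 in root PS-NH2 and 1.89 in root PS-SO3H. The 4 values per gene are not independent, since comparisons within a tissue share their controls.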
